A study of Mus musculus with 16 samples.

Results

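The clustered protocadherin genes lie in a row of 3 arrays on mouse chromosome 18, and they were taken here as the protein-coding genes of the GRCm38 annotation on that chromosome whose symbol begins with Pcdha, Pcdhb or Pcdhg. The rule found 57 genes of 21000 with a curated transcript, namely 14 in the alpha array (Pcdha1 to Pcdha12, Pcdhac1 and Pcdhac2), 22 in the beta array (Pcdhb1 to Pcdhb22) and 21 in the gamma array (12 of the A type, 6 of the B type and 3 of the C type). Each member had 1 annotated start site, and a member was called marked when a peak overlapped the 5001 bp made by the start site and 2500 bp on either side.

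Clustered protocadherins are cell-surface adhesion proteins that pair with identical copies on a neighbouring cell. Each neuron uses its own small set of them, chosen through the separate promoter of each variable exon with the help of CTCF and cohesin, and this set lets the branches of a neuron recognise one another. Every alpha and gamma variable exon is spliced to constant exons shared by its array, whereas each beta gene is a single exon. The C-type genes stand at the 3′ end of the alpha and gamma arrays and are known to be used by many neurons rather than by a choice in each cell.

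The study compared mouse embryonic stem cells of the R1 line, grown without feeder cells, in 2 cultures. LIF-ESCs were kept with 100 units/ml leukaemia inhibitory factor, and Myc-ESCs were kept without it in 50 nM 4-hydroxytamoxifen (OHT). OHT activates a fusion of Myc with the oestrogen receptor (MycER) that the cells of the study carry. The study names a mutant form of Myc for the clone it was given, and not for the clone it made itself. Chromatin was immunoprecipitated for H3K4me3, a histone mark of active promoters, for H3K27me3, the mark laid down by Polycomb repressive complex 2 (PRC2), and for Suz12, a core subunit of that complex. There were 2 libraries for each culture and antibody and 2 input libraries for each culture, 16 libraries in all, but 1 list of peaks for each culture and antibody. LIF and OHT differed together, so the effect of either cannot be told apart from that of the other, and which of the study's MycER clones was used is not given in the labels. Whether the 2 libraries were pooled before calling is not given in the sources used here. Read numbers are not part of the lists and the depth is unknown, so no error between replicates can be given and no difference below has a test.

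Each peak carries a score, which for this peak caller is 10 times the negative log10 of its p-value and starts at 50. The lists differed in length. H3K27me3 had 3120 peaks in LIF-ESCs versus 16717 in Myc-ESCs, with median lengths of 157 and 162 bp. Suz12 had 11305 and 13907 peaks, and H3K4me3 had 32469 and 30345. A score also grows with depth, so sets of members, and some single ones, are compared between cultures by the share of peaks in their own list that scored as high or lower. This share is called the list rank below. Scores printed for a member in both cultures are not corrected for depth. Of 6 genes that define embryonic stem cells, all 6 (Pou5f1, Nanog, Sox2, Zfp42, Esrrb and Klf4) had H3K4me3 in both cultures. H3K27me3 was at none of the 6 in LIF-ESCs and at 1 in Myc-ESCs, Esrrb, and Suz12 was at 1 and 2.

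The arrays run in one direction, and all 57 members are read from the plus strand. Taken with 2500 bp before the first start site, the alpha array lies at chr18:36927785-37188897, the beta array at chr18:37262498-37521419 and the gamma array at chr18:37659275-37841873 (GRCm38). Start sites were a median of 7440 bp apart in the alpha array, 7842 bp in the beta array and 5369 bp in the gamma array. The windows of neighbours overlapped at no alpha pair, at 3 beta pairs and at 7 gamma pairs, and some peaks therefore counted for both neighbours. In the Myc-ESC Suz12 list 9 of 153 peaks did so, and in the LIF-ESC list 4 of 87.

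H3K4me3 covered nearly every alpha and gamma start region in both cultures, whereas beta members carried it in fewer cases and more often in Myc-ESCs. In LIF-ESCs 12 of 14 alpha (85.7%, 95% Wilson interval 60.1 to 96), 5 of 22 beta (22.7%, 10.1 to 43.4) and 21 of 21 gamma members (100%, 84.5 to 100) were marked, compared with 67.9% of all genes. In Myc-ESCs the counts were 13 alpha (92.9%, 68.5 to 98.7), 14 beta (63.6%, 43 to 80.3) and 20 gamma members (95.2%, 77.3 to 99.2), compared with 69.4% of all genes. The intervals cover counting error alone and treat neighbours as independent, although they can share a peak.

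The members that had H3K4me3 in Myc-ESCs alone numbered 10 of 57, compared with 2.34% of all genes. They were Pcdhac1 and the beta genes Pcdhb2, Pcdhb3, Pcdhb4, Pcdhb8, Pcdhb10, Pcdhb11, Pcdhb14, Pcdhb17 and Pcdhb19. One member, Pcdhgb2, had H3K4me3 in LIF-ESCs alone, with 2 peaks and a highest score of 133, a state found at 0.852% of all genes. The beta members marked in both cultures were Pcdhb1, Pcdhb7, Pcdhb18, Pcdhb21 and Pcdhb22. Of these, Pcdhb18 counted in Myc-ESCs through the peak in the exon of Pcdhb17, and Pcdhb22 counted in LIF-ESCs through the peak in the exon of Pcdhb21. In those lists neither had H3K4me3 in its own exon. The 9 members without H3K4me3 in either culture were Pcdha8 and the beta genes Pcdhb5, Pcdhb6, Pcdhb9, Pcdhb12, Pcdhb13, Pcdhb15, Pcdhb16 and Pcdhb20. The beta peaks were weak. Their median highest score was 68 in LIF-ESCs versus 88.1 in Myc-ESCs, and they ranked at a median of 9.88% and 15.6% of their lists. With a score of at least 100 the beta count was 2 in LIF-ESCs versus 5 in Myc-ESCs, compared with 65.6% and 67.4% of all genes.

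**Figure D1:**
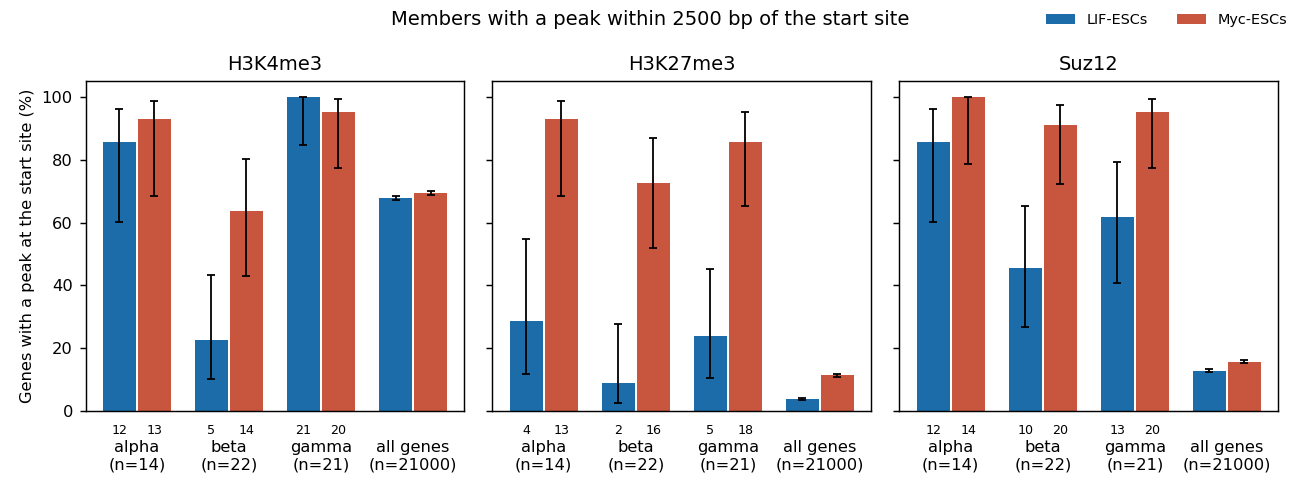
Share of members with a peak within 2500 bp of the start site (y axis, percent) for the alpha, beta and gamma arrays and all 21000 genes, in 3 panels by antibody. Blue bars are LIF-ESCs and red bars Myc-ESCs, error bars are 95% Wilson intervals for counting error, and the small numbers under the bars are the members marked; H3K27me3 goes from 4, 2 and 5 members in LIF-ESCs to 13, 16 and 18 in Myc-ESCs.

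The C-type genes had some of the strongest H3K4me3 of their arrays, apart from Pcdhac1. Pcdhgc3, which takes part in dendrite branching, had a peak with a score of 1718 in LIF-ESCs versus 971 in Myc-ESCs, at list ranks of 77.4% and 69%. Pcdhgc4, which cortical interneurons need for survival, had scores of 1034 and 661. Pcdhgc5 had scores of 1076 and 892, from peaks of 6289 and 6530 bp that reached into its window from downstream and did not cover the start site. All 3 gamma C genes thus had H3K4me3 in both lists. Pcdhac2, which is known for the spacing of serotonergic axons, had scores of 314 and 544, the highest of the alpha array. Pcdhac1 had no H3K4me3 peak in LIF-ESCs and one with a score of 80.3 in Myc-ESCs.

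In the gamma array the H3K4me3 peaks stood lower in the Myc-ESC list than in the LIF-ESC list. The median list rank of the 20 gamma members marked in both was 62.4% in LIF-ESCs versus 45.3% in Myc-ESCs, and 19 of the 20 ranked higher in LIF-ESCs, with Pcdhgb5 as the exception. Among all genes marked in both cultures, 43.5% ranked higher in LIF-ESCs. With both lists at 30345 peaks the gamma medians were 59.7% and 45.4%, and 19 of 20 again ranked higher in LIF-ESCs, compared with 35.6% of all such genes. Pcdhga9 went from 58.2% to 8.16%, a score of 463 against 67. Pcdhga12 went from 74.2% to 56.8%, and its covered length from 4373 to 2593 bp. Pcdhga8 went from 70.6% to 47.6%, a score of 1094 against 320.

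The alpha array did not share that order. Of 12 alpha members marked in both cultures, 3 ranked higher in LIF-ESCs versus 9 in Myc-ESCs, with medians of 30% and 32.8%. Pcdha1, the first gene of the array, went from 41.5% to 52.1% and from 1980 to 3465 bp of covered sequence. Pcdha5 went from 47% to 41.6% while its covered length went from 1793 to 3372 bp. More bases were covered in Myc-ESCs at 11 of the 12 alpha members and at 10 of the 20 gamma members, compared with 65.2% of all genes marked in both. Summed over the windows, H3K4me3 covered 20326 bp in LIF-ESCs versus 31512 bp in Myc-ESCs of the alpha array, 5809 and 23425 bp of the beta array, and 50210 and 45074 bp of the gamma array.

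**Figure D2:**
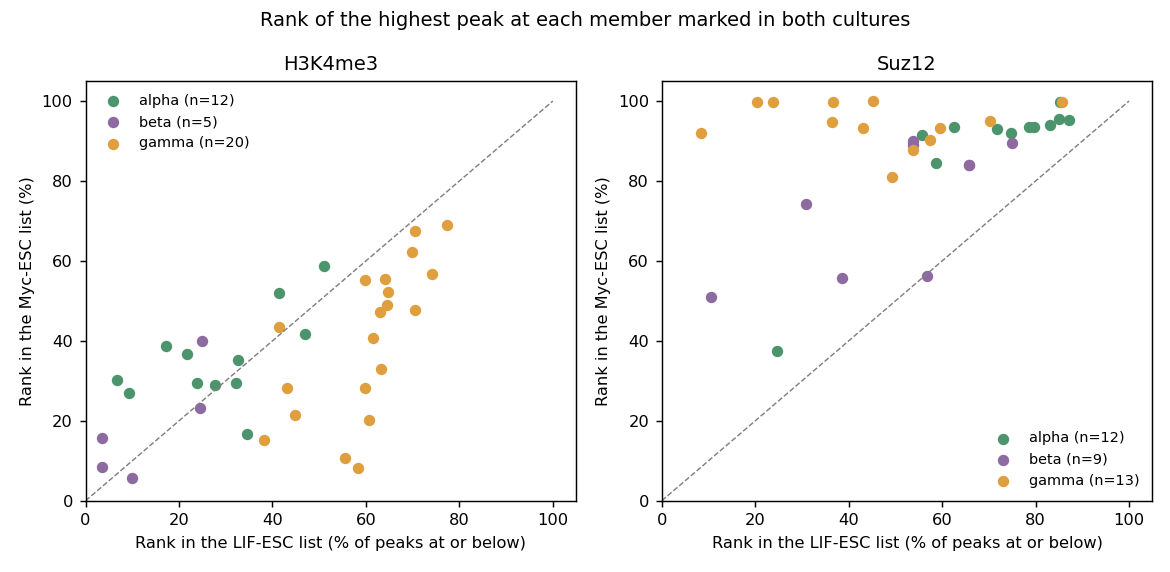
List rank of the highest peak at each member marked in both cultures (percent of the list's peaks that scored as high or lower), with the LIF-ESC list on the x axis and the Myc-ESC list on the y axis, for H3K4me3 (left) and Suz12 (right). Green points are alpha, purple beta and yellow gamma members, and the dashed line marks equal ranks; for H3K4me3 19 of 20 gamma members lie under the line, and for Suz12 12 of 12 alpha and 13 of 13 gamma members lie above it.

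The place of the H3K4me3 peaks set the beta genes apart in both cultures. A peak lay over the start site itself at 12 of 12 marked alpha members and 20 of 21 marked gamma members in LIF-ESCs, and at 13 of 13 and 19 of 20 in Myc-ESCs. Among all marked genes the share was 96.6% in LIF-ESCs versus 96.6% in Myc-ESCs. Of marked beta members, 1 of 5 and 2 of 14 had a peak over the start site. These were Pcdhb1 in both cultures and Pcdhb2 in Myc-ESCs. The middle of the highest peak was a median of 1860 and 1905 bp downstream of the start site in the beta array, compared with 204 and 358 bp in the alpha array and 378 and 318 bp in the gamma array. At the median these positions fall inside the single beta exon, whose median length is 3418 bp. Pcdhb1, which lacks the sequence element that most of these promoters share, was the one beta member with a peak over its start site in both lists, with scores of 112 and 234.

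Suz12 lay at most members of all 3 arrays in Myc-ESCs and at fewer in LIF-ESCs. In LIF-ESCs 12 alpha (85.7%, 60.1 to 96), 10 beta (45.5%, 26.9 to 65.3) and 13 gamma members (61.9%, 40.9 to 79.2) were marked, 35 of 57 in all, compared with 12.8% of all genes. In Myc-ESCs 14 alpha (100%, 78.5 to 100), 20 beta (90.9%, 72.2 to 97.5) and 20 gamma members (95.2%, 77.3 to 99.2) were marked, 54 of 57, compared with 15.7% of all genes. The 3 members without Suz12 in Myc-ESCs were Pcdhb1, Pcdhb8 and Pcdhgc5. Suz12 was in Myc-ESCs alone at 20 members, compared with 4.22% of all genes, and in LIF-ESCs alone at Pcdhb1, where the peak had a score of 130, compared with 1.37% of all genes.

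With the 11305 highest-scoring peaks of the Myc-ESC Suz12 list, the number in the LIF-ESC list, 51 members were marked, compared with 14.6% of all genes. With a score of at least 100, Suz12 was at 4 gamma members in LIF-ESCs instead of 13, and at 5 and 13 beta members instead of 10 and 20 in LIF-ESCs and Myc-ESCs, compared with 8.66% and 12% of all genes. With 1000 bp on either side it was at 3 and 11 beta members, compared with 11.9% and 14.8% of all genes.

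Suz12 peaks also covered more bases in Myc-ESCs. Summed over the windows it covered 16309 bp in LIF-ESCs versus 32500 bp in Myc-ESCs of the alpha array, 3856 and 22940 bp of the beta array, and 8579 and 51555 bp of the gamma array. Of members marked in both cultures, 12 of 12 alpha, 9 of 9 beta and 13 of 13 gamma members had more bases under Suz12 peaks in Myc-ESCs, compared with 81.3% of all such genes. With both lists at 11305 peaks the sums were 16309 and 30611 bp, 3856 and 20743 bp, and 8579 and 50426 bp, and the counts of members with more bases were the same, compared with 80.2% of all such genes. These sums depend on what the caller accepted in each list, and lists of equal length need not have equal depth. Among members marked in both cultures, the median list rank went from 76.7% to 93.4% in the alpha array, from 53.8% to 84.1% in the beta array and from 45.2% to 94.7% in the gamma array. It was higher in Myc-ESCs at 12 of 12, 8 of 9 and 13 of 13 members, compared with 72.5% of all such genes. With both lists at 11305 peaks the medians were 76.7% and 91.9%, 53.8% and 80.5%, and 45.2% and 93.4%, and the rank was higher in Myc-ESCs at 11 of 12, 8 of 9 and 13 of 13 members, compared with 64.4% of all such genes. In the full lists Pcdhb17 and Pcdhb18 had the same highest peak in each culture. Over all members marked in a full list, the beta median was 55.3% in LIF-ESCs (10 members) versus 56% in Myc-ESCs (20 members). The alpha medians were then 76.7% and 93.2%, and the gamma medians 45.2% and 92.7%.

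The longest Suz12 peaks of the arrays were in the second part of the gamma array. In Myc-ESCs a single peak of 6255 bp (chr18:37751204-37757458) ran from before the variable exon of Pcdhgb7 into that of Pcdhga11, with a score of 3100. In LIF-ESCs the highest peak at Pcdhgb7 was 203 bp long with a score of 63.5, and the one at Pcdhga11 was 167 bp long with a score of 61. A peak of 4266 bp lay over the first exon of Pcdhgb6 and in the window of Pcdhga10. Pcdhgb5 had a Suz12 score of 3182, compared with 81.8 in LIF-ESCs. The score of 3100 is shared by 522 peaks of the Myc-ESC Suz12 list and by 161 of the LIF-ESC list, so peaks with scores of 3100 and above are not ordered here. The longest LIF-ESC Suz12 peak within the gamma array was 834 bp.

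Gamma A and gamma B genes, which alternate along the array, differed in LIF-ESCs. All 6 gamma B genes and 7 of 12 gamma A genes were marked by Suz12, and the median covered length was 1019 bp for the B type and 178 bp for the A type. Pcdhgb6, with 2171 bp under Suz12 peaks, Pcdhgb4 with 1055 bp and Pcdhgb2 with 936 bp had the highest Suz12 scores of the array in LIF-ESCs. In Myc-ESCs all 12 A and all 6 B genes were marked, with medians of 1912 and 2756 bp. H3K4me3 had the opposite order of levels, with a median score of 640 at A genes and 212 at B genes in LIF-ESCs and of 319 and 144 in Myc-ESCs.

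The gamma C genes had no Suz12 in LIF-ESCs. In Myc-ESCs Pcdhgc3 had 3188 bp under Suz12 peaks and a highest score of 2053, Pcdhgc4 had 2475 bp and a score of 869, and Pcdhgc5 had none. Both alpha C genes were marked in both cultures. Pcdhac1 went from 731 to 1655 bp and from a score of 111 to 586, and Pcdhac2 from 2096 to 2671 bp and from 498 to 2574.

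Within the alpha array, Suz12 was spread over the variable exons except at a group of 3 neighbours. Pcdha11 had a score of 3100 in Myc-ESCs, from a peak of 3875 bp, compared with a score of 413 and 789 bp in LIF-ESCs. Pcdha4 went from a score of 402 to one of 2682. Pcdha6, Pcdha7 and Pcdha8 had between 203 and 322 bp under Suz12 peaks in Myc-ESCs, whereas the 11 other alpha members had between 1655 and 4222 bp. These 3 genes are named because their low values were seen. They also hold much sequence that recurs elsewhere in the arrays. Of the 50-base stretches in exon 1, 26.5%, 23.6% and 18.3% also occur elsewhere in the 3 arrays, on either strand, compared with a median of 14.3% over the alpha array, 4.58% over the beta array and 0.6% over the gamma array. Only reads with a unique place were used by the study, and the part of this recurrence in the low values was not tested. Pcdha11, with 19.2%, had 4222 bp under Suz12 peaks in Myc-ESCs, and Pcdhgb2, with 18.1%, had 2639 bp. Both of these shares are below those of Pcdha6 and Pcdha7.

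Within the beta array, Suz12 gathered at the 3′ end. The 6 genes from Pcdhb17 to Pcdhb22, a stretch chosen after its values were seen, had 15274 bp under Suz12 peaks in Myc-ESCs. This was 66.6% of the sum over the beta windows. The 6 genes had between 1432 and 4237 bp each, and the other 16 beta members had between 0 and 1376 bp. Pcdhb22, the last gene, had 9 Suz12 peaks and a highest score of 1173 in Myc-ESCs, compared with 2 peaks and 98.4 in LIF-ESCs. The LIF-ESC peak with that score lay in the exon of Pcdhb21, and Pcdhb22 had no Suz12 in its own exon in that list. Pcdhb18 likewise counted in LIF-ESCs through the Suz12 peak in the exon of Pcdhb17. Pcdhb20 had no Suz12 peak in LIF-ESCs and a peak with a score of 1120 in Myc-ESCs, and Pcdhb19 went from a score of 199 to 1093. The Suz12 peaks of Pcdhb10, Pcdhb11 and Pcdhb16, present in Myc-ESCs alone, had scores of 108, 119 and 114.

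A-type gamma genes were also among the members with Suz12 in Myc-ESCs alone, and 3 of them stand at the start of the array. Pcdhga1, the first gene, had a score of 87.3 and 543 bp, Pcdhga2 had 185 and 797 bp, and Pcdhga3 had 164 and 946 bp. Further along, Pcdhga7 had a score of 638 and Pcdhga9 one of 1009. The remaining such members, with scores between 54.3 and 108, were Pcdha7 and Pcdha8 and the beta genes Pcdhb4, Pcdhb6, Pcdhb9, Pcdhb12, Pcdhb13, Pcdhb14 and Pcdhb15.

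**Figure D3:**
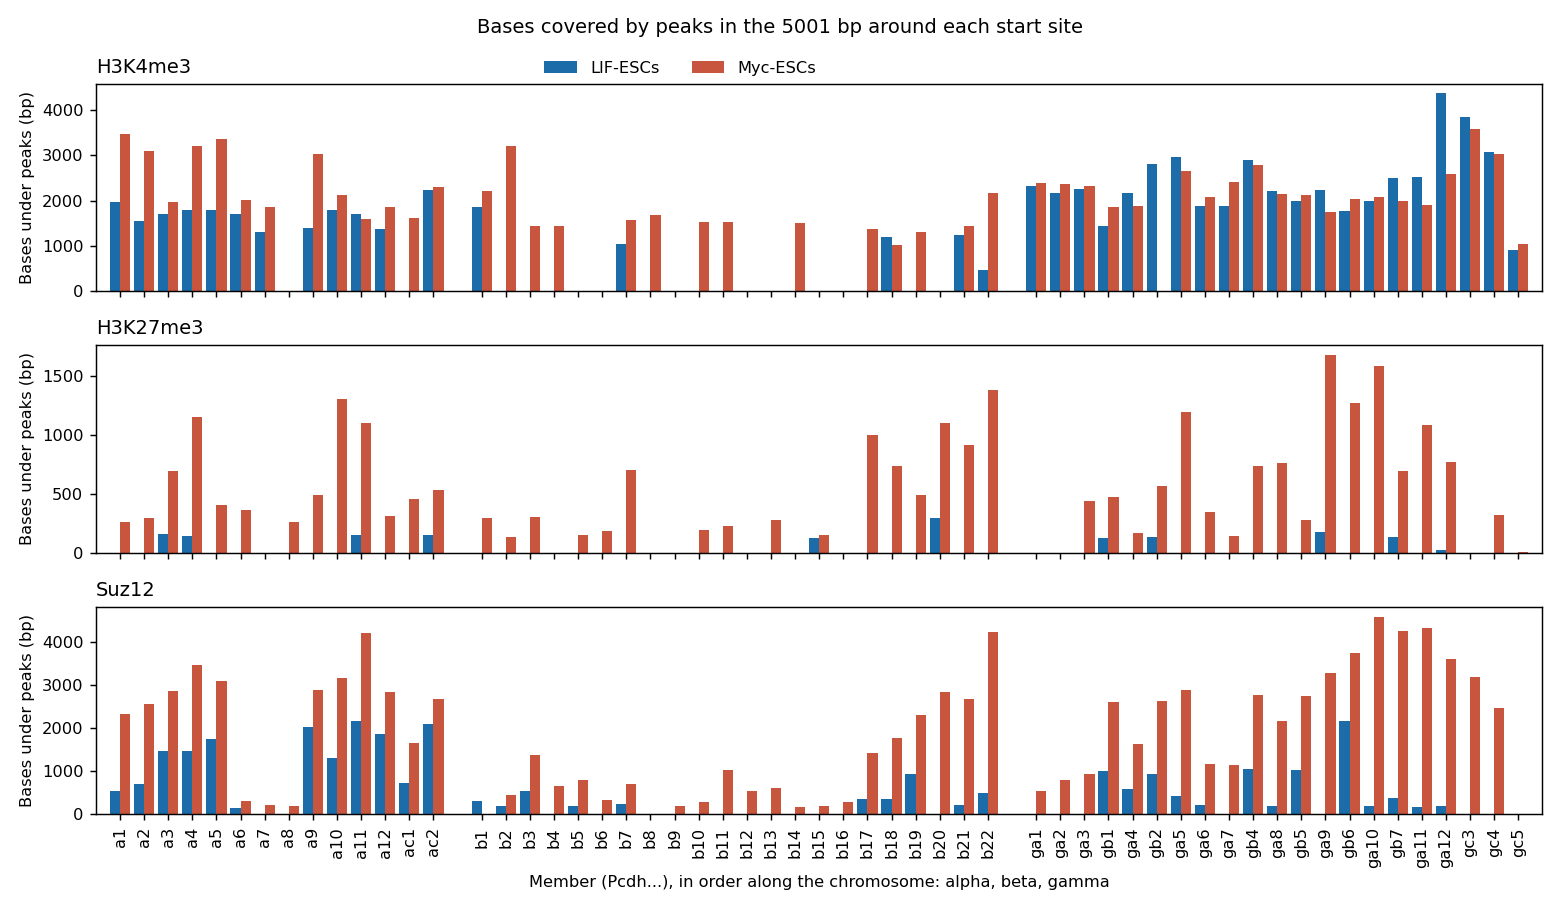
Bases under peaks (y axis, bp) in the 5001 bp around each start site, for the 57 members in their order along the chromosome (x axis), in 3 panels by antibody with separate scales. Blue bars are LIF-ESCs and red bars Myc-ESCs, 1 list each; Suz12 in Myc-ESCs is highest at Pcdhga10 with 4587 bp, is low from Pcdha6 to Pcdha8, and is above the rest of the beta array over Pcdhb17 to Pcdhb22.

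The start site itself was under a Suz12 peak at 10 members in LIF-ESCs versus 32 in Myc-ESCs, and under an H3K4me3 peak at 33 and 34 members. In LIF-ESCs Suz12 did so at 8 of 12 marked alpha, 1 of 10 beta and 1 of 13 gamma members, compared with 37.7% of all marked genes. In Myc-ESCs Suz12 did so at 10 of 14 alpha, 5 of 20 beta and 17 of 20 gamma members, compared with 48% of all marked genes. In the gamma array, then, the LIF-ESC peaks lay mostly within the variable exon and the Myc-ESC peaks reached back over its start. A median of 7.92% of exon 1 was under Suz12 peaks over the gamma members in LIF-ESCs versus 74.2% in Myc-ESCs, and for the alpha members the medians were 47.1% and 94.9%.

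**Figure D4:**
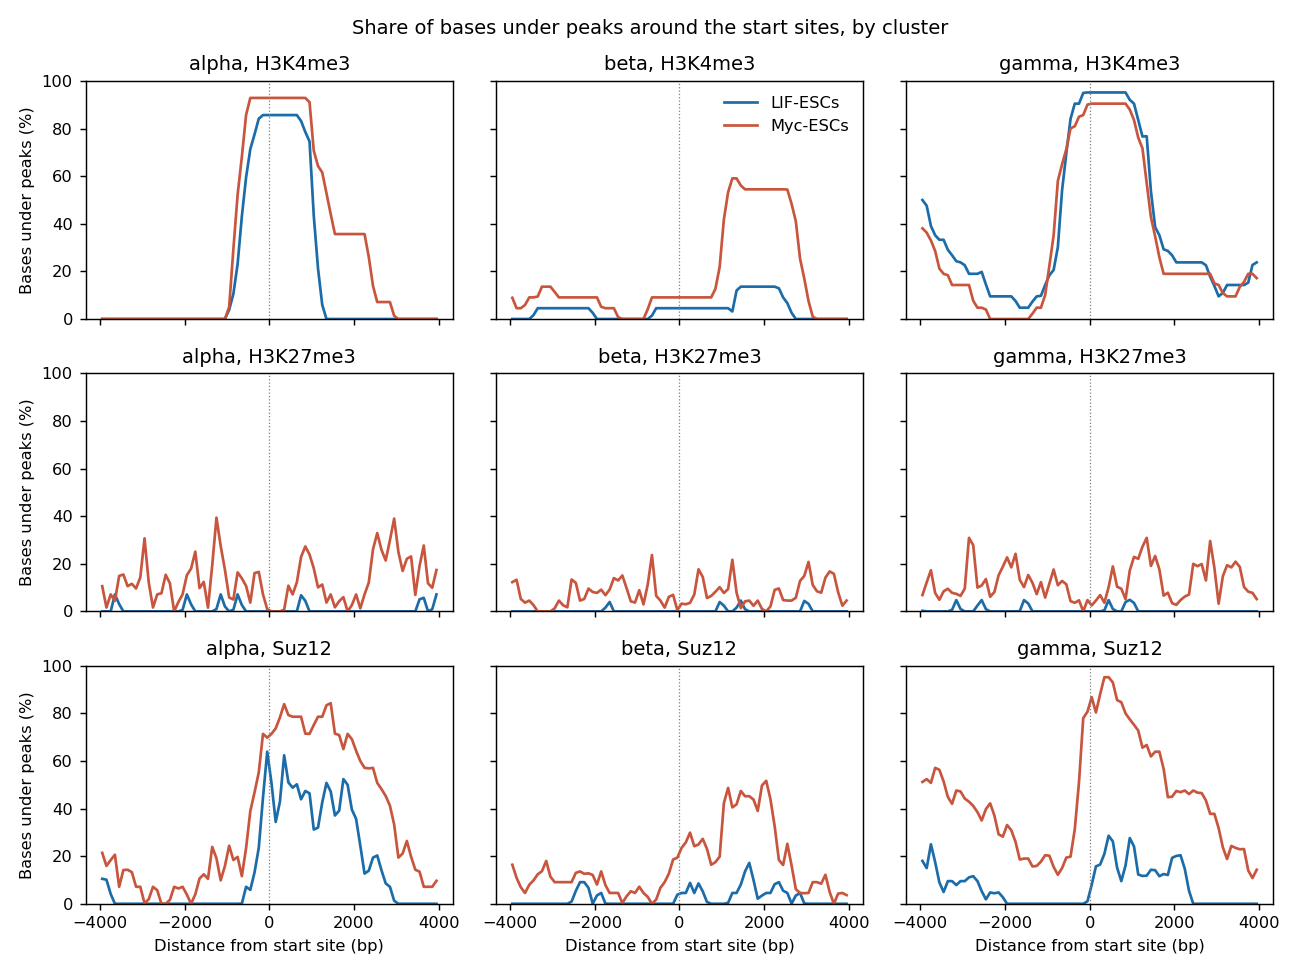
Share of bases under peaks (y axis, percent of members) by distance from the start site (x axis, bp, in bins of 100 bp, downstream to the right), for the 3 arrays in columns and the 3 antibodies in rows. Blue lines are LIF-ESCs and red lines Myc-ESCs; H3K4me3 covers 85.7% and 92.9% of alpha members at the start site but at most 13.6% and 59.1% of beta members, beyond 1000 bp downstream.

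H3K27me3 was at 11 of 57 members in LIF-ESCs and at 47 in Myc-ESCs, compared with 3.9% and 11.5% of all genes. By array, 4 alpha (28.6%, 11.7 to 54.6), 2 beta (9.09%, 2.53 to 27.8) and 5 gamma members (23.8%, 10.6 to 45.1) were marked in LIF-ESCs. In Myc-ESCs 13 alpha (92.9%, 68.5 to 98.7), 16 beta (72.7%, 51.8 to 86.8) and 18 gamma members (85.7%, 65.4 to 95) were marked. Every member with H3K27me3 in LIF-ESCs also had it in Myc-ESCs, and 36 had it in Myc-ESCs alone, compared with 8.4% of all genes. The 10 members without H3K27me3 in either culture were Pcdha7, the beta genes Pcdhb4, Pcdhb8, Pcdhb9, Pcdhb12, Pcdhb14 and Pcdhb16, and the gamma genes Pcdhga1, Pcdhga2 and Pcdhgc3.

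The H3K27me3 counts rest on short and weak peaks. When just the 3120 best-scoring peaks of the Myc-ESC list were kept, which makes both lists equally long, 11 members were marked instead of 47, compared with 3.45% of all genes, so the number was the same as in LIF-ESCs. Only 2 members, Pcdha4 and Pcdhga9, were in both of these sets. With a score of at least 100, no member was marked in LIF-ESCs versus 12 in Myc-ESCs, compared with 0.352% and 3.67% of all genes. Of the H3K27me3 peaks within the arrays in Myc-ESCs, 89.2% in alpha, 90.9% in beta and 84.4% in gamma had a score under 100, compared with 79.8% of the whole list.

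In Myc-ESCs the H3K27me3 peaks came as many short pieces, and the fewer LIF-ESC peaks were also short. The alpha array held 5 peaks in LIF-ESCs versus 74 in Myc-ESCs, the beta array 4 and 66, and the gamma array 5 and 77, compared with 3120 and 16717 in the whole lists. Their median length was 148, 148 and 135 bp in LIF-ESCs, compared with 157 bp over the whole list. In Myc-ESCs it was 149, 150 and 168 bp, compared with 162 bp. Pcdha10, Pcdhb22, Pcdhga9 and Pcdhga10 had 9 pieces each in their windows. The bases under them summed to 7628 bp over the alpha windows, 8263 bp over the beta windows and 12528 bp over the gamma windows, compared with 599, 417 and 583 bp in LIF-ESCs.

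Within the start-site windows, the highest H3K27me3 scores in Myc-ESCs were at the gamma genes Pcdhga11 (199), Pcdhgb6 (163) and Pcdhga9 (155), the last of which covered 1680 bp, the most of any member. In LIF-ESCs Pcdhga11 and Pcdhgb6 had no H3K27me3, and Pcdhga9 had 172 bp with a score of 62.8. In the beta windows the highest were Pcdhb22 (155), Pcdhb17 (110) and Pcdhb3 (109), none of them marked in LIF-ESCs. The Pcdhb17 score came from a peak of 217 bp in the exon of Pcdhb16 that reached the edge of the Pcdhb17 window. Pcdhb16 itself counted as unmarked because this peak lay beyond its own window. Pcdhb17 also had 703 bp under H3K27me3 peaks in its own exon. In the alpha windows they were Pcdha4 (136), Pcdha1 (115) and Pcdha10 (113), of which Pcdha4 had a score of 60 in LIF-ESCs and the others no peak. The alpha array also held a peak with a score of 272 that lay outside these windows. Other members with the mark in Myc-ESCs alone and high scores were Pcdhga5 (133), Pcdhga10 (115) and Pcdhb21 (97.9). At the other end, Pcdhgc5 counted through 6 bp of a peak at the edge of its window.

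The LIF-ESC H3K27me3 peaks were all weak. The highest was at Pcdhga12, with a score of 82.6, of which 20 bp lay within the window. Pcdhb20 had 70.9, Pcdha11 67.9, Pcdha3 66.4, Pcdhb15 65.6, Pcdhgb1 64.7 and Pcdhgb2 63.1. Pcdhac2 was the one C-type gene marked in LIF-ESCs, with 58.8. No LIF-ESC H3K27me3 peak of the alpha array (0 of 5) or the beta array (0 of 4) overlapped a Suz12 peak, and 2 of 5 of the gamma array did, compared with 46.2% of the whole list. In Myc-ESCs 35 of 74 alpha, 21 of 66 beta and 64 of 77 gamma peaks did, compared with 48% of the whole list.

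Members that had Suz12 but no H3K27me3 in LIF-ESCs were all marked by H3K27me3 in Myc-ESCs. This held for 8 of 8 alpha, 10 of 10 beta and 9 of 9 gamma members, 27 of 27 in all, compared with 58.5% of all genes in that state. Of the 19 members with neither in LIF-ESCs, 9 were marked, compared with 3.18% of all genes. Both comparisons use the full H3K27me3 lists, with the limit on list length given above.

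Peaks of all 3 antibodies met at 8 members in LIF-ESCs and at 38 in Myc-ESCs, compared with 2.92% and 9.56% of all genes. In LIF-ESCs these were 4 alpha and 4 gamma members and no beta member, and in Myc-ESCs 12 alpha, 10 beta and 16 gamma members. H3K4me3 with neither of the others was found at 8 members in LIF-ESCs, 7 of them gamma, and at 1 beta member in Myc-ESCs, compared with 55.2% and 52.6% of all genes. No peak of any kind was found at 11 members in LIF-ESCs, of which 10 were beta genes, and at none in Myc-ESCs, compared with 31.3% and 30% of all genes. The H3K27me3 part of these counts carries the same limit.

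Suz12 and H3K27me3 peaks covered a smaller share of the sequence between the arrays than of any array in the same culture. Their highest shares there were 1.88% and 2.01%, in Myc-ESCs. For H3K4me3 this did not hold. It covered 9.08% of the stretch between beta and gamma in LIF-ESCs and 8.78% in Myc-ESCs, compared with 2.15% and 10.1% of the beta array. The 73.6 kb between alpha and beta (chr18:37188898-37262497) held no Suz12 and no H3K27me3 peak in either culture, and 1 H3K4me3 peak in each. The 138 kb between beta and gamma (chr18:37521420-37659274) held 9 Suz12 and 12 H3K27me3 peaks in Myc-ESCs, compared with 0 and 1 in LIF-ESCs, and 4 H3K4me3 peaks in each. In the gamma array Suz12 covered 29.3% of all bases in Myc-ESCs and 4.48% in LIF-ESCs, in the alpha array 14.3% and 6.52%, and in the beta array 8.99% and 1.27%.

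The arrays also differ in base composition, which the selection did not use. CpG dinucleotides within 500 bp of the start site numbered a median of 37.5 per kb in the alpha array, 15 in the beta array and 33 in the gamma array, compared with 45 over all genes. In exon 1 the medians were 47.1, 22.7 and 38.2 per kb, with 31.2 at gamma A and 47.4 at gamma B genes. Pcdhgc3, with Suz12 in Myc-ESCs alone, had 58 per kb, the most of any member. Pcdhgc5, without Suz12 in either list, had 26.3, and Pcdhac1, with Suz12 in both lists, had 26.7. Over the 57 members, CpG per kb of exon 1 and bases under Suz12 peaks had a Spearman correlation of 0.49 in LIF-ESCs versus 0.57 in Myc-ESCs. Within the gamma array (21 members) it was 0.45 and 0.71, within the alpha array (14 members) 0.06 and 0.07, and within the beta array (22 members) 0.18 and -0.04. CpG per kb of exon 1 had correlations of 0.62 and 0.59 with bases under H3K4me3 peaks over the 57 members. The share of recurring 50-base stretches in exon 1 had a correlation of 0.74 with bases under Suz12 peaks in LIF-ESCs versus 0.16 in Myc-ESCs within the gamma array, where its median was 0.297% at A genes and 11.7% at B genes. The members of an array share their libraries, neighbouring windows and a common origin of sequence, and these values are a description.

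**Figure D5:**
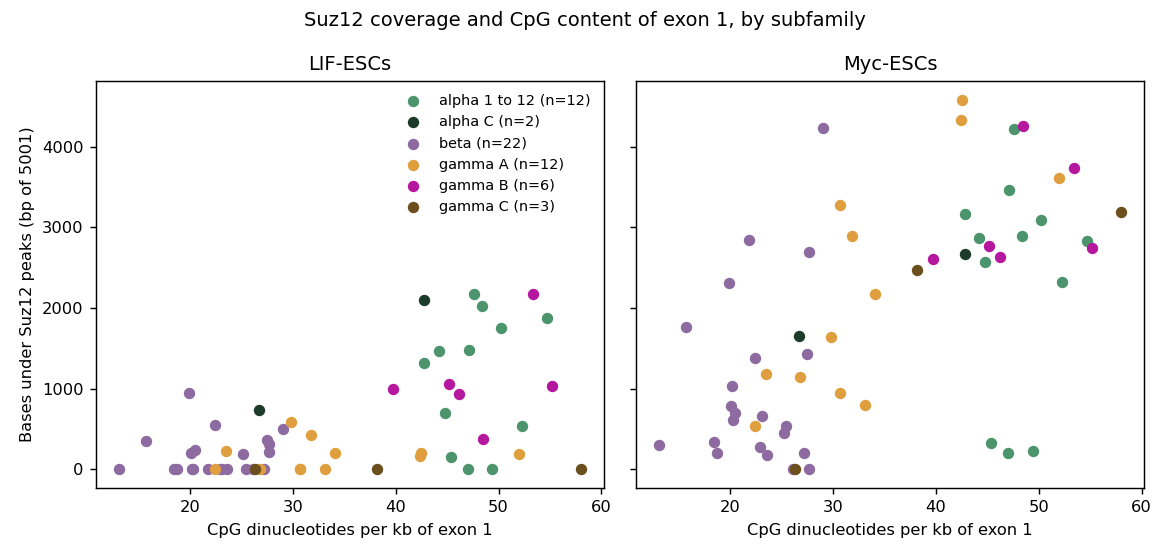
Bases under Suz12 peaks in the 5001 bp around the start site (y axis, bp) against CpG dinucleotides per kb of exon 1 (x axis) for the 57 members, in LIF-ESCs (left) and Myc-ESCs (right). Each point is a member and colours mark the array and type; beta members lie between 13.1 and 29 CpG per kb, and the 6 gamma B members between 39.7 and 55.2.

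Of 12 protocadherin genes outside the arrays, 10 had Suz12 in both cultures, and Pcdh12 and Pcdh15 had it in neither. Taken whole, the Suz12 peaks that reached the windows of the 10 were longer in sum in Myc-ESCs at 9 of them, and Pcdh20 was the exception. By bases within the windows, 81.3% of all genes with Suz12 in both cultures had more in Myc-ESCs. Over the 10 genes the whole peaks summed to 32648 bp in LIF-ESCs and to 38799 bp in Myc-ESCs. H3K4me3 was at 9 and 10 of the 12 genes and H3K27me3 at 0 and 7, compared with 67.9% and 69.4%, and with 3.9% and 11.5%, of all genes. Pcdh17 had a Suz12 peak of 4891 bp in LIF-ESCs and one of 5572 bp in Myc-ESCs, both with a score of 3100, and Pcdh7 had 6514 and 7287 bp. Peaks of that length were not listed within the arrays in LIF-ESCs, where the longest was 1065 bp, at Pcdhac2.

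The Hox genes, another family in compact arrays, had Suz12 at 39 of 39 members in both cultures, H3K27me3 at 25 in LIF-ESCs versus 39 in Myc-ESCs, and H3K4me3 at 30 and 36. Over all genes the shares in LIF-ESCs and Myc-ESCs were 12.8% and 15.7% for Suz12, 3.9% and 11.5% for H3K27me3, and 67.9% and 69.4% for H3K4me3. Of 446 other genes of chromosome 18, 80 had Suz12 in LIF-ESCs versus 102 in Myc-ESCs, 9 and 63 had H3K27me3, and 345 and 350 had H3K4me3. Genes known to act on promoter choice or silencing of the protocadherin arrays (Ctcf, the cohesin genes Rad21, Smc1a, Smc3, Stag1 and Stag2, their loader Nipbl and release factor Wapl, and Smchd1, Setdb1, Dnmt3a and Dnmt3b) had H3K4me3 at 12 of 12 in both cultures and neither H3K27me3 nor Suz12.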

How the data were processed

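ChIP-seq of H3K4me3, H3K27me3 and Suz12 was taken from LIF-ESCs and Myc-ESCs. Reads were aligned by the authors to GRCm38 (mm10) with Bowtie2 2.2.3, uniquely placed reads were kept and peaks were called with MACS 1.4.2 at its defaults, per the study's methods and processing notes. The deposited lists give each peak's position and a score (10 times the negative log10 of p, at least 50), 1 list per culture and antibody, so no test was possible and the depth is unknown. Start sites were those of curated RefSeq transcripts of GRCm38, and 774 of 21774 protein-coding genes had none. Overlaps, covered bases and CpG counts were computed with Python 3.11.15, pandas 2.3.3 and pysam 0.24.0, and checked on 600 simulated windows, of which 0 differed from a direct count. Wilson 95% intervals (statsmodels 0.14.6) cover counting error only. The members and gene lists were chosen with earlier results of these data known. Named with values were the C-type genes, Pcdhb1, the first and last gene of each array, the 3 members of each array with the highest score in each list, and, for Suz12 and H3K27me3, members marked in 1 culture only (the 10 with the highest score); other names are given to complete a count or were chosen after their values were seen. Alternatives were another window (1000 or 5000 bp), a score of at least 100, lists of equal length, the nearest start site only, the start of the gene record and, chosen after seeing the data, GENCODE M21 start sites, covered bases and list ranks with lists of equal length, and a peak over the start site itself. No sequence of these genes is printed here.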

Additional observations from a re-analysis of the deposited data

How the results depend on the processing

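Counts of members by array, antibody and culture (18 in all) are within 1.5 times of the values above with the nearest start site only, the start of the gene record and GENCODE M21 start sites (0 of 18 outside). With a score of at least 100, 11 counts moved further: H3K27me3 was at 0 alpha, 0 beta and 0 gamma members in LIF-ESCs and at 3, 3 and 6 in Myc-ESCs, H3K4me3 at 2 and 5 beta members, and Suz12 at 5 and 13 beta members and at 4 gamma members in LIF-ESCs. With lists of equal length, 4 moved: H3K27me3 in Myc-ESCs was at 3, 3 and 5 members, and H3K4me3 in LIF-ESCs at 3 beta members. With 1000 bp on either side, 7 moved: H3K27me3 in LIF-ESCs was at 2, 1 and 3 members, H3K4me3 at 1 and 8 beta members, and Suz12 at 3 and 11 beta members. With 5000 bp, 1 moved, H3K27me3 in LIF-ESCs at 9 gamma members. With a peak over the start site itself, 11 moved: H3K27me3 was at 0, 0 and 0 members in LIF-ESCs and at 0, 0 and 1 in Myc-ESCs, H3K4me3 at 1 and 2 beta members, and Suz12 at 1 and 5 beta members and at 1 gamma member in LIF-ESCs. The cause of these shifts was not tested beyond what each setting removes by its construction.

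More members had H3K27me3 in Myc-ESCs than in LIF-ESCs under every setting except lists of equal length, where both had 11. Depth is unknown, and its part in the list lengths was not tested. Covered bases of all 3 antibodies and median list ranks of H3K4me3 and Suz12 were also taken with lists of equal length, chosen after seeing the data. The alpha, beta and gamma values for Suz12 and the gamma values for H3K4me3 are given above. The H3K27me3 sums given above are those of the full lists. With both lists at 3120 peaks, H3K27me3 covered 599 bp in LIF-ESCs versus 1282 bp in Myc-ESCs of the alpha windows. It covered 417 and 627 bp of the beta windows, and 583 and 2791 bp of the gamma windows. Over all genes these sums were 204323 and 426911 bp. With H3K4me3 lists of equal length, the median rank of beta members in LIF-ESCs was 19.3%, over the 3 members marked in both. No paired analysis was possible because each culture and antibody has 1 list and none for a single library, and no library was left out for the same reason.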
